A study of Mus musculus with 4 samples.

Results

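The genes described here encode the proteins that carry a signal from the T cell antigen receptor to its first enzymes, adaptors and transcription factors, together with the proteins that hold that signal back. They were taken by name from a list of 48 gene symbols, chosen with earlier results of these data known. All 48 were found among the 54532 genes of the deposited table. By known role, 33 of them are activating parts, 12 are brakes and 3 (Ptprc, Themis and Cd6) act in both directions. The libraries are RNA-seq of wild-type (WT) mouse spleen cells, in which naive CD4+ T cells were held for 3 days under conditions that favour the T follicular helper (Tfh) fate. The control group received no treatment and the DMF group received dimethyl fumarate, an electrophilic ester that activates the stress-response factor Nrf2, with 2 libraries in each group. The sources used here do not give the dose, mouse strain, age or number of animals, and no label says that replicates are separate cultures, so the p-values measure only the spread between these libraries, which may be technical. The series title names chronic graft-versus-host disease, a block on Tfh development, and Nrf2, and the question here is which transcripts of such cultures differ when DMF is present.

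When a peptide on an MHC molecule binds the antigen receptor, the kinase Lck, held by the coreceptor CD4, phosphorylates paired tyrosines in the tails of the CD3 chains. The kinase ZAP-70 docks there and phosphorylates the adaptors LAT and SLP-76 (Lcp2), which gather phospholipase C gamma 1, Vav proteins and Ras activators. Calcium release then lets calcineurin dephosphorylate NFAT, while diacylglycerol opens the Ras and NF-kB branches. Phosphatases, the kinase Csk, ubiquitin ligases of the Cbl family and diacylglycerol kinases end each of these steps, and the same signal, its strength and its duration take part in the choice of a Tfh fate.

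Levels are in FPKM, that is fragments divided by gene length in kilobases and by the size of the library. The 4 libraries hold between 15900118 and 17516953 reads. A listed gene had between 139 and 28483 reads in a library, so no level of a listed gene rests on a count near 0. Control replicate 2 stood apart: genes of ribosomal proteins took 14.3% of its reads and between 6.53% and 7.14% in the other libraries, and log2 differences over 12166 genes had an SD of 0.74 from control to control, against 0.32 from DMF to DMF library. Its short genes read high and its long genes read low. Among the 16 shortest listed genes (1741 to 3744 bp), the median of control replicate 2 minus the mean of the other libraries was 0.40 on the log2 scale, and among the 16 longest (7857 to 18319 bp) it was -0.56. The medians over all tested genes in the same length ranges were 0.35 and -0.55. Many differences are therefore also given without it. The 9 defining T cell markers were present in every library at 13.7 FPKM or more. They summed to 1748 and 3531 FPKM in the controls and 1564 and 1485 FPKM in the DMF libraries. Both DMF libraries lay below both controls for 7 of the 9, against 26.8% of all tested genes. Of these 9 markers, 5 are listed genes themselves (Cd3d, Cd3e, Cd3g, Cd247 and Cd4), and all 5 are among the 7. Markers of B cells summed to 14.2 and 17.3 FPKM in the controls and 32.7 and 32.1 FPKM in the DMF libraries. Of the 12, 11 lay above both controls, against 26.4% of all tested genes. Those of CD8 T and NK cells summed to 35.6 and 73.7 FPKM in the controls and 8.67 and 8.62 FPKM in the DMF libraries. Nkg7 alone held 21.1 and 50.4 FPKM of these sums in the controls and 5.2 and 5.45 FPKM in the DMF libraries. Cd8a was at 1.68 and 2.17 FPKM against 0.105 and 0.0589 FPKM, and Cd8b1 at 4.95 and 9.2 FPKM against 2.32 and 1.7 FPKM. Of the 10, 7 lay below both controls, against 26.8% of all tested genes, and Klrb1c and Ncr1 were at 0 in all 4 libraries. Myeloid markers summed to between 7.4 and 12.7 FPKM in each library. Of 12, 5 lay below both controls and 2 above both, against 26.8% and 26.4% of all tested genes. Many markers of these other cells were scarce, some with few or 0 reads. A mean of 1 FPKM was reached by 9 of 12 B cell, 4 of 10 CD8 T and NK cell, and 3 of 12 myeloid markers. The shares over all tested genes cover only genes that reached it. Of the markers that did, 8 of 9 B cell markers lay above both controls and 4 of 4 CD8 T and NK cell markers below both. Of the 3 myeloid markers, 2 lay below both and 1 above both.

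The genes Cd3g, Cd3d and Cd3e of the CD3 complex lie side by side on chromosome 9, and they are shown first because neighbours of the same cluster differed in how far apart the groups lay. Cd3g (GRCm38 chromosome 9, 44969572 to 44980431, minus strand) and Cd3d (44981786 to 44987339, plus strand) start 1355 bases apart and point away from each other, and Cd3e (44998740 to 45009627, minus strand) follows 11401 bases beyond the end of Cd3d. The 250 bases before the RefSeq start of each gene (build GRCm38.p6, given 5′ to 3′ on the gene's strand) lie at chr9:44980432-44980681 for Cd3g, chr9:44981536-44981785 for Cd3d and chr9:45009612-45009861 for Cd3e. Capitals mark matches on either strand to GGAAGT (a sequence bound by ETS factors) and CAGNTG (bound by E proteins). These were the only matches there among 4 motifs searched, and stretches holding only GGAA were not marked.

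Cd3g: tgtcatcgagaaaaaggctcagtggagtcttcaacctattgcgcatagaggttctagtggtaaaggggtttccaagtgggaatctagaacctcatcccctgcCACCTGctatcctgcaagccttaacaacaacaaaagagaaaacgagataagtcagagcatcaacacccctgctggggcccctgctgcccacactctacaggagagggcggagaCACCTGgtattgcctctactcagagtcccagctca

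Cd3d: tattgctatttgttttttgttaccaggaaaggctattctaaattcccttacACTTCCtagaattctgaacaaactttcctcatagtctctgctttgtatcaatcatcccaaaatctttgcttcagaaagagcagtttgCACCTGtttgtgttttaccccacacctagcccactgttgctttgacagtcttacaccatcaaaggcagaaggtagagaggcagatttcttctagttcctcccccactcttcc

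Cd3e: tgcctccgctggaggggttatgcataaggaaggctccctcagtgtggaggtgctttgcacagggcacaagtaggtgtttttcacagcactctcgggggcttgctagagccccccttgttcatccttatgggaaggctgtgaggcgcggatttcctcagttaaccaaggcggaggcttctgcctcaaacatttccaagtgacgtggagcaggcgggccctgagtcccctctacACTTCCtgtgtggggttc

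The upstream window of Cd3g held 2 E protein matches, that of Cd3d held 1 ETS and 1 E protein match, and that of Cd3e held 1 ETS match. None of the 3 held TGTGGT, bound by RUNX factors, or TGACNNNGC, the core of the antioxidant response element to which Nrf2 binds. RefSeq entries were matched for 39 of the 48 genes, with 58 start sites between them, and not for Cd2, Cd4, Cd6, Itpr1, Malt1, Nfatc1, Pag1, Ppp3ca and Sla. The ETS sequence GGAAGT was found in 41.4% of the 58 windows and in 19.7% of all 32851 RefSeq windows of this length. By gene, it was found for 18 of the 39. Windows of the same gene were counted separately, and the windows compared were not limited to genes expressed in these cultures. For the E protein motif the shares were 46.6% and 44.8%, for RUNX 8.62% and 14%, and for the antioxidant response element 8.62% and 10.2%. The last of these was matched upstream of Dgka, Nck1, Ptprc, Vav3 and Zap70. A match describes letters only, both strands were read, and a window may hold matches to several motifs.

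As a group, the receptor chains and coreceptors stood lower in DMF cultures, the kinases and adaptors lay on either side of the controls, and Nfatc1, Vav3, Lcp2 and the brake Pag1 stood higher. Both DMF libraries lay below both controls in 19 of the 48 genes, against 26.8% of all tested genes, and above both controls in 11, against 26.4%. In limma on log2(FPKM + 1), 0 of the 48 passed an adjusted p of 0.05 (lowest adjusted p = 0.331, for Cd2), as did 0% of the 12166 tested genes. At an unadjusted p under 0.05 there were 5 of the 48 (Cd2, Cd247, Themis, Nfatc1 and Vav3), against 9.45% of all tested genes. limma's voom on reads worked out from FPKM also called 0 of the 48, against 0% of all tested genes, with 8 at an unadjusted p under 0.05, against 9.69% of all tested genes. For a single gene, 2 libraries against 2 cannot give an exact permutation p below 0.333. The median difference was -0.077 on the log2 scale over the activating parts, -0.15 over the 3 genes with both roles and 0.019 over the brakes, against -0.013 over all tested genes. Under quantile normalization these medians were 0.18 for the activating parts and 0.30 for the brakes, against 0.026 for all tested genes, and without control replicate 2 they were -0.045 and -0.0086, against 0.014.

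**Figure D1:**
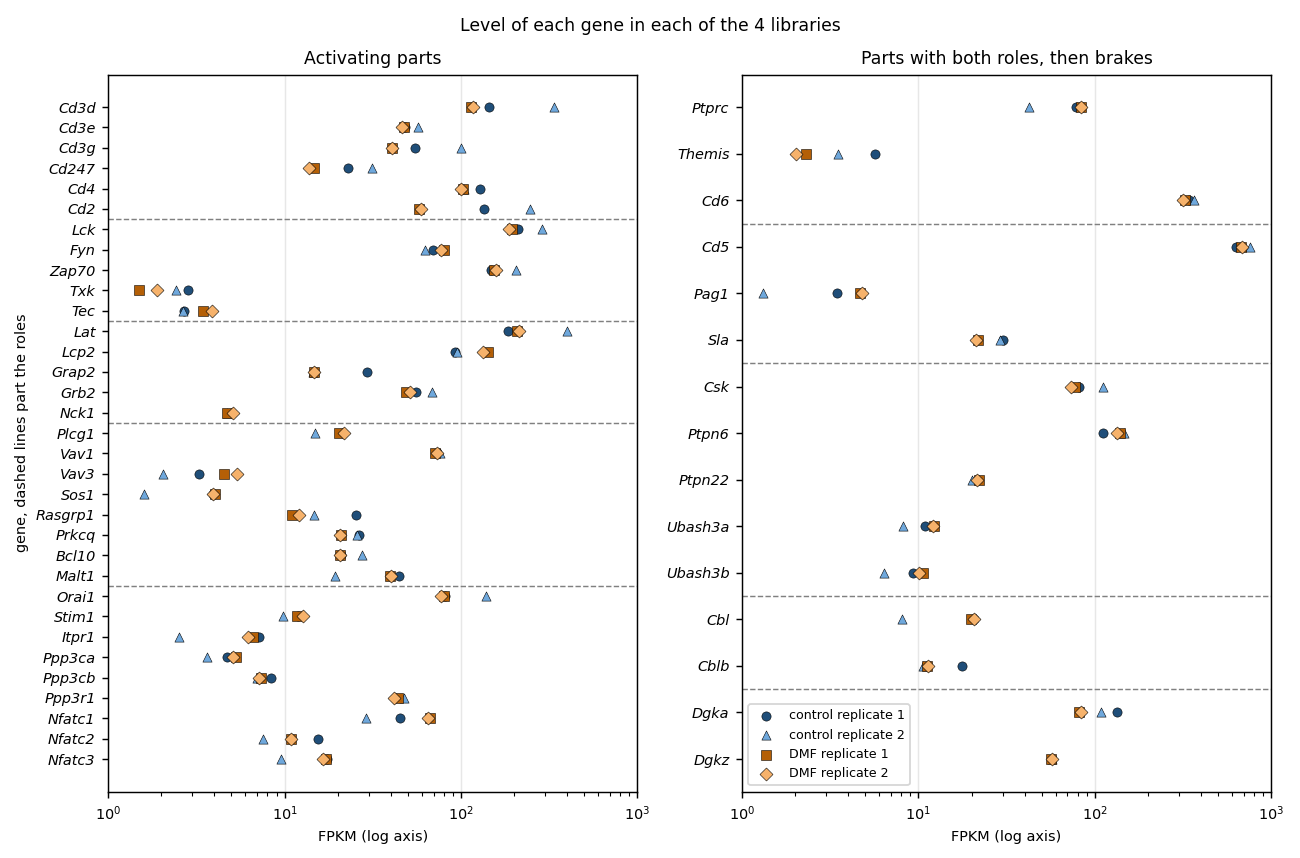
FPKM of the 48 genes (horizontal log axis) in each of the 4 libraries, with circles and triangles for control replicates 1 and 2 and squares and diamonds for DMF replicates 1 and 2. The DMF libraries nearly coincide for most genes, while control replicate 2 lies apart for many, such as Cd3d at 338 FPKM against 144 FPKM in control replicate 1.

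Fits that leave out a control take their spread from the DMF pair alone. The SD of log2 differences was 0.74 from control to control and 0.32 from DMF to DMF library. Passing in such a fit therefore does not measure the spread among controls. Leaving out control replicate 2 compares control replicate 1 with the DMF libraries, and assumes, against those SDs, that a lone control varies as the DMF pair does. In that fit limma called 12 of the 48 genes lower in DMF cultures, against 5.51% of all tested genes, and 3 higher, against 2.77%. Leaving out control replicate 1 instead gave 36 of the 48, against 61% of all tested genes. Passing in the same direction with either control left out were 10 genes. Cd2, Cd247, Cd3d, Cd3g, Dgka, Rasgrp1, Sla and Themis were lower (8 of 48, against 4.64% of all tested genes), and Lcp2 and Nfatc1 were higher (2 of 48, against 1.72%). The pair of fits shares the DMF libraries, so they are not independent of each other. By 1 or more on the log2(FPKM + 1) scale with groups apart, Cd2 alone was lower, against 4% of all tested genes, and 0 of the 48 were higher, against 1.67%. That scale shrinks differences of low genes. Under voom on the reads, Themis (-1.02) and Pag1 (1.14), whose groups also lay apart, reached that size too.

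**Figure D2:**
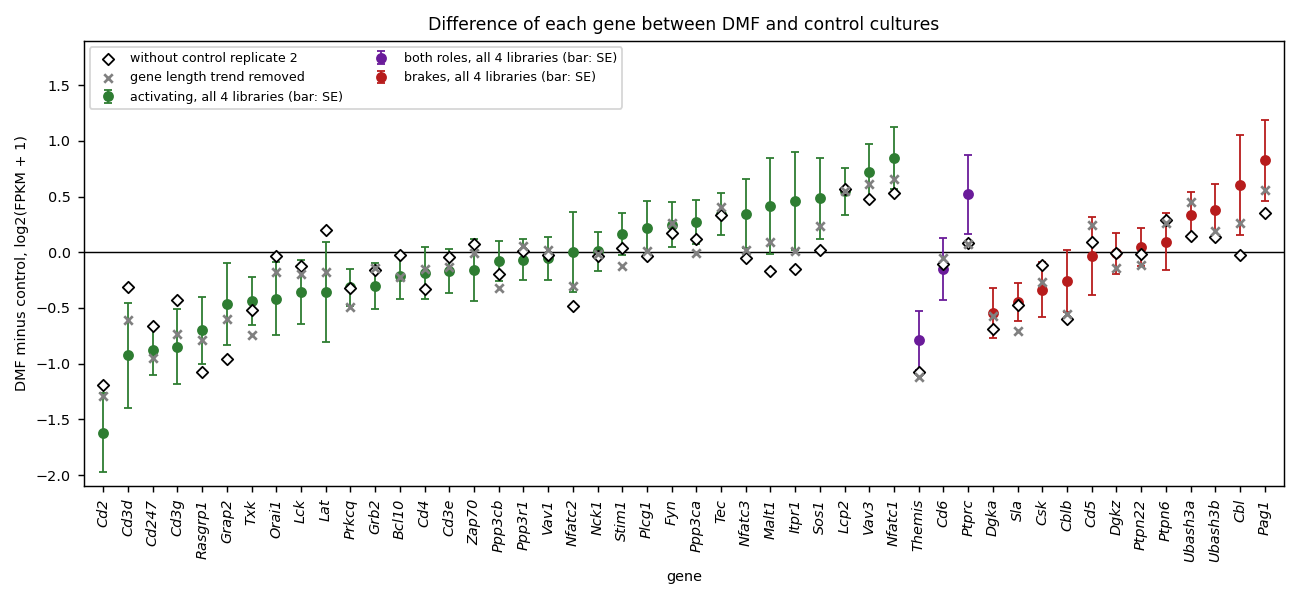
Difference between DMF and control cultures (log2(FPKM + 1) scale) for each gene, sorted within activating parts, parts with both roles and brakes. Filled points with SE bars use all 4 libraries, open diamonds leave out control replicate 2 and crosses have the gene length trend removed. Cd2 sits lowest at -1.62 and Nfatc1 highest at 0.85, and for Lat, Cbl, Malt1 and Itpr1 the open diamond lies on the other side of 0.

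All 6 receptor chains and coreceptors were lower in each DMF library than in either control, against 26.8% of all tested genes. Their median difference of -0.86 on the log2 scale was -0.38 when control replicate 2 was left out and -1.18 when control replicate 1 was. Control replicate 2 read these genes high, by a median of 1.00 over the mean of the other libraries on the log2 scale. Cd2 (GRCm38 chromosome 3, 101275899 to 101287939), which encodes an adhesion receptor that lowers the threshold for T cell activation, was at 135 and 246 FPKM in control replicates 1 and 2 and at 57.9 and 59.4 FPKM in DMF replicates 1 and 2. Both DMF values were far under the lower control, and the controls also lay far apart. The ratio of group means was 3.24 and the difference -1.62 ± 0.355 log2 units (SE), at a limma adjusted p of 0.331, or -1.19 without control replicate 2.

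Among the signalling chains, Cd3d was at 144 and 338 FPKM in the controls and 115 and 117 FPKM in the DMF libraries. Its neighbour Cd3g was at 55.3 and 99.6 FPKM in the controls and 40.8 FPKM in each DMF library. In both genes control replicate 1 lay much nearer to the DMF libraries than control replicate 2 did, so that the difference of -0.93 for Cd3d was -0.31 when control replicate 2 was left out and -1.54 when control replicate 1 was, and that of -0.85 for Cd3g was -0.43 and -1.27. Cd3e, the third gene of the cluster, was at 48.2 and 57.3 FPKM in the controls and at 47.3 and 46 FPKM in the DMF libraries. Its groups barely separate (-0.17 ± 0.20 on the log2 scale, SE), and the difference was -0.045 without control replicate 2 and 0.11 under quantile normalization. Cd247 (GRCm38 chromosome 1, 165788681 to 165877277), which encodes the zeta chain that carries most of the receptor's docking sites for ZAP-70, was at 23 and 31.4 FPKM in the controls and at 14.6 and 13.7 FPKM in the DMF libraries. Both DMF values lay well below both controls. The difference was -0.88 ± 0.22 with all libraries and -0.66 without control replicate 2. Cd4, the coreceptor that marks helper T cells, was at 128 and 105 FPKM against 103 and 100.3 FPKM. The lower Cd4 control was within a few FPKM of the DMF libraries, and the difference of -0.19 became -0.33 without control replicate 2, -0.042 without control replicate 1 and 0.18 under quantile normalization. CD8 T cells also use the CD3 chains and CD2. Of the CD8 T and NK cell markers, 7 of 10 were below both controls in the DMF libraries, against 26.8% of all tested genes, as given above. The NK cell markers Klrb1c and Ncr1 were at 0 in all 4 libraries. The differences of Cd4 and Cd3e were smaller than that of Cd2. The part of CD8 T cells in the differences of the receptor genes was not tested, and in bulk RNA fewer cells of a type and less RNA per cell cannot be told apart.

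The kinase genes Lck and Zap70 were among the most abundant of the 48. Lck, which starts the cascade, was at 210 and 289 FPKM in the controls and at 196 and 189 FPKM in the DMF libraries. Zap70, which carries it on, was at 148 and 205 FPKM against 155 and 157 FPKM. For Zap70 the DMF values lay between the controls, and its difference of -0.16 ± 0.28 on the log2 scale (SE) was 0.077 without control replicate 2 and 0.31 under quantile normalization. The difference of -0.36 ± 0.29 for Lck was -0.12 without control replicate 2, and 0.22 under quantile normalization. Fyn, the second Src kinase of T cells, lay slightly above both controls, at 69.3 and 62.4 FPKM against 79.7 and 77 FPKM. The Tec family members Tec and Txk were scarce. Tec was at 2.68 ± 0.0226 FPKM (SD, n = 2) without DMF and 3.67 ± 0.306 FPKM with it, and Txk, also called Rlk, at 2.63 ± 0.296 and 1.69 ± 0.276 FPKM, so that these relatives lay in opposite directions. Txk kept its direction without control replicate 2 (-0.52, against -0.44 with all libraries), and neither gene passed in that fit.

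Adaptors link the kinases to the enzymes downstream. Lat, the membrane scaffold, was at 184 and 398 FPKM in the controls and at 209 and 214 FPKM in the DMF libraries. The DMF values again lay between the controls, and the difference of -0.35 ± 0.45 on the log2 scale (SE) was 0.20 without control replicate 2, -0.91 without control replicate 1 and 0.25 under quantile normalization. Lcp2 (GRCm38 chromosome 11, 34046920 to 34092295), which encodes SLP-76, gave a clean separation at 92.9 and 95.4 FPKM in the controls and 142 and 134 FPKM in the DMF libraries. Its difference was 0.55 ± 0.21 (SE), at a limma adjusted p of 0.536, and 0.57 when control replicate 2 was left out and 0.53 when control replicate 1 was. Grap2, which encodes the bridge between LAT and SLP-76 called Gads, was at 29.4 and 14.5 FPKM against 14.7 and 14.8 FPKM. Only control replicate 1 was high, so that the difference of -0.47 was -0.95 when control replicate 2 was left out and 0.021 when control replicate 1 was. Grb2, which brings the Ras activator Sos1 to LAT, was at 62.1 ± 8.66 FPKM (SD, n = 2) without DMF and 50 ± 1.9 FPKM with it. Nck1, an adaptor to the actin skeleton, was at 4.87 ± 0.256 and 4.9 ± 0.274 FPKM.

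Of the 8 effectors, 4 lay below both controls, against 26.8% of all tested genes, and 2 above both, against 26.4%. The groups overlapped for 2, against 46.8% of all tested genes. Rasgrp1 (GRCm38 chromosome 2, 117279993 to 117343001), the diacylglycerol-dependent activator of Ras, was at 25.4 and 14.7 FPKM in the controls and at 11 and 12 FPKM in the DMF libraries. The controls lay further from each other than control replicate 2 lay from the DMF libraries, and the difference of -0.70 was -1.08 when control replicate 2 was left out and -0.32 when control replicate 1 was. Vav3, a guanine nucleotide exchange factor that acts on the actin skeleton, was at 3.25 and 2.03 FPKM against 4.51 and 5.36 FPKM, a difference of 0.72 ± 0.25 (SE), or 0.48 without control replicate 2. Its abundant relative Vav1 hardly differed, at 75 ± 2.08 FPKM (SD, n = 2) without DMF and 72.2 ± 1.22 FPKM with it. Prkcq, the protein kinase C isoform of the NF-kB branch, had tight replicates at 26.1 ± 0.283 and 20.8 ± 0.327 FPKM. Its partners downstream, Bcl10 and Malt1, were at 24.2 ± 4.53 and 20.5 ± 0.0141 FPKM and at 32 ± 18 and 39.7 ± 0.416 FPKM. For Malt1 the difference of 0.42 was -0.17 without control replicate 2. Plcg1, the phospholipase that makes diacylglycerol and the calcium-releasing messenger, was at 18.2 ± 4.65 and 21.1 ± 1.05 FPKM, and Sos1 at 2.76 ± 1.67 and 4 ± 0.0738 FPKM, with differences of 0.22 and 0.49 that were -0.029 and 0.018 without control replicate 2.

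In the calcium branch the groups overlapped for 6 of 9 genes, against 46.8% of all tested genes, and Nfatc1 had the largest difference of the 9. Nfatc1 encodes the NFAT protein whose own gene is switched on by the signal, and NFAT drives several Tfh genes. It was at 45.2 and 28.8 FPKM in the controls and at 66.9 and 64.7 FPKM in the DMF libraries. Both DMF values exceeded both controls, and control replicate 1 was the nearer of the controls. The difference was 0.85 ± 0.28 log2 units (SE), at a limma adjusted p of 0.503, and it was 0.53 when control replicate 2 was left out and 1.16 when control replicate 1 was. Nfatc2 was at 15.5 and 7.51 FPKM against 10.8 and 10.9 FPKM, and Nfatc3 at 17.4 and 9.59 FPKM against 17.1 and 16.4 FPKM. Control replicate 2 was the lowest library for both, and without it their differences of 0.00046 and 0.35 were -0.48 and -0.049. Ppp3r1, the regulatory subunit of calcineurin, was at 45 ± 3.54 FPKM (SD, n = 2) without DMF and 42.9 ± 1.59 FPKM with it, and the catalytic subunit genes Ppp3ca and Ppp3cb had differences of 0.27 and -0.077, or 0.12 and -0.20 without control replicate 2. Orai1, the pore of the store-operated calcium channel, was at 81 and 138 FPKM against 80.7 and 77.3 FPKM, and only control replicate 2 was high, so that its difference of -0.42 was -0.036 without that library. Its sensor Stim1 and the release channel Itpr1 had differences of 0.17 and 0.46, or 0.035 and -0.15 without control replicate 2.

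Ptprc, Themis and Cd6 serve the signal in both directions. Ptprc encodes CD45, the phosphatase that removes the inhibitory phosphate from Lck and, on its activating site, can also switch it off. It was at 78.6 and 42.2 FPKM in the controls and at 83.1 and 83.3 FPKM in the DMF libraries. Control replicate 1 lay next to the DMF libraries, and the difference of 0.52 ± 0.35 on the log2 scale (SE) was 0.080 without control replicate 2 and 0.070 with the gene length trend removed. Themis (GRCm38 chromosome 10, 28668360 to 28883818), an adaptor that sets signal strength in developing T cells, was at 5.65 and 3.49 FPKM in the controls and at 2.31 and 2.02 FPKM in the DMF libraries. Every DMF value was below the lower control, and the difference of -0.79 ± 0.27 (SE), at a limma adjusted p of 0.503, was -1.07 without control replicate 2 and -1.12 with the length trend removed. Cd6, a scavenger receptor family coreceptor, was at 356 ± 15.8 FPKM (SD, n = 2) without DMF and 320 ± 5.31 FPKM with it.

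Among the 12 brakes, both DMF libraries lay below both controls for 3 and above both for 3, shares near the 26.8% and 26.4% of all tested genes, and the groups overlapped for 6. Dgka (GRCm38 chromosome 10, 128720134 to 128744855), the diacylglycerol kinase that limits Ras activation, was at 133 and 109 FPKM in the controls and at 81.2 and 83.4 FPKM in the DMF libraries. The gap between the groups was slightly wider than that between the controls on the FPKM scale, and the difference was -0.55 ± 0.23 log2 units (SE), at a limma adjusted p of 0.549, or -0.69 without control replicate 2. Its relative Dgkz was level, at 57.1 ± 0.264 FPKM (SD, n = 2) without DMF and 56.7 ± 0.881 FPKM with it. Sla, which encodes SLAP, an adaptor that promotes the loss of receptor chains, was at 30.2 and 29 FPKM against 21.7 and 21.1 FPKM. Its controls nearly coincide, and the difference of -0.45 ± 0.17 was -0.48 when control replicate 2 was left out and -0.42 when control replicate 1 was. Of the 48 genes, 15 overlap another gene that passed the level filter. They include Cd3e, Lck, Zap70, Grap2 and Ptpn22. Tg overlaps Sla, Pmel overlaps Dgka, 4930469K13Rik overlaps Lcp2 and Pou2f1 overlaps Cd247 on the opposite strand, and Gm16565 overlaps Cd247 on the same strand. The sources used here do not say whether the counting used strand.

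Pag1, the membrane anchor that brings Csk to Lck, was at 3.47 and 1.32 FPKM in the controls and at 4.65 and 4.77 FPKM in the DMF libraries. Its difference of 0.83 ± 0.37 on the log2 scale (SE) was 0.35 without control replicate 2. Csk itself, the kinase that places the inhibitory phosphate on Lck, was at 96.4 ± 21.1 FPKM (SD, n = 2) without DMF and 75.4 ± 2.22 FPKM with it. The anchor and its kinase therefore lay in opposite directions, and the Csk difference of -0.33 was -0.11 without control replicate 2. The phosphatase Ptpn22, which acts with Csk on Lck and ZAP-70, was at 21.9 and 20.1 FPKM against 22 and 21.4 FPKM. Its groups overlapped, with a difference of 0.048 ± 0.17 that was -0.011 without control replicate 2. Ptpn6, which encodes SHP-1, was at 129 ± 25.2 and 136 ± 3.61 FPKM. Ubash3a and Ubash3b, the Sts phosphatases that act on ZAP-70, lay above both controls with differences of 0.34 and 0.38, or 0.15 and 0.14 without control replicate 2. The ubiquitin ligase gene Cbl was at 20.6 and 8.08 FPKM against 19.9 and 20.6 FPKM, with control replicate 2 alone low, so that its difference of 0.60 was -0.021 without that library. Cblb was at 17.5 and 10.6 FPKM against 11.2 and 11.3 FPKM, with control replicate 1 alone high. Cd5, a receptor that dampens the signal and the most abundant of the 48, was at 696 ± 85.4 and 678 ± 8.76 FPKM.

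Shares within small families do not depend on library scaling. Nfatc1 made up 57.9% and 62.8% of the summed FPKM of the 3 NFAT genes in the controls and 70.6% and 70.3% in the DMF libraries, while Nfatc2 made up 19.9% and 16.4% against 11.4% and 11.9%. In each case both DMF libraries lay outside the range of the controls. Dgka made up 70.1% and 65.6% of the pair Dgka and Dgkz in the controls and 59.1% and 59.3% in the DMF libraries. Cbl made up 54% and 43.2% of the pair Cbl and Cblb in the controls and 64% and 64.7% in the DMF libraries, and Fyn 24.9% and 17.8% of Lck and Fyn against 28.9% and 29%. Ppp3ca made up 35.8% and 34.1% of the summed FPKM of Ppp3ca and Ppp3cb in the controls and 42% and 41.8% in the DMF libraries. That sum leaves out Ppp3cc, also a catalytic calcineurin gene but not among the 48. Ppp3cc was at 15.4 and 16.4 FPKM in the controls and 9.92 and 9.42 FPKM in the DMF libraries (-0.66 on the log2 scale, limma adjusted p = 0.385). The pair Ubash3a and Ubash3b kept an overlapping balance, with Ubash3a at 53.9% and 56.1% against 53.5% and 54.5%. These shares were chosen to be shown after the values were seen, and members of a family differ in gene length, with which control replicate 2 moves.

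**Figure D3:**
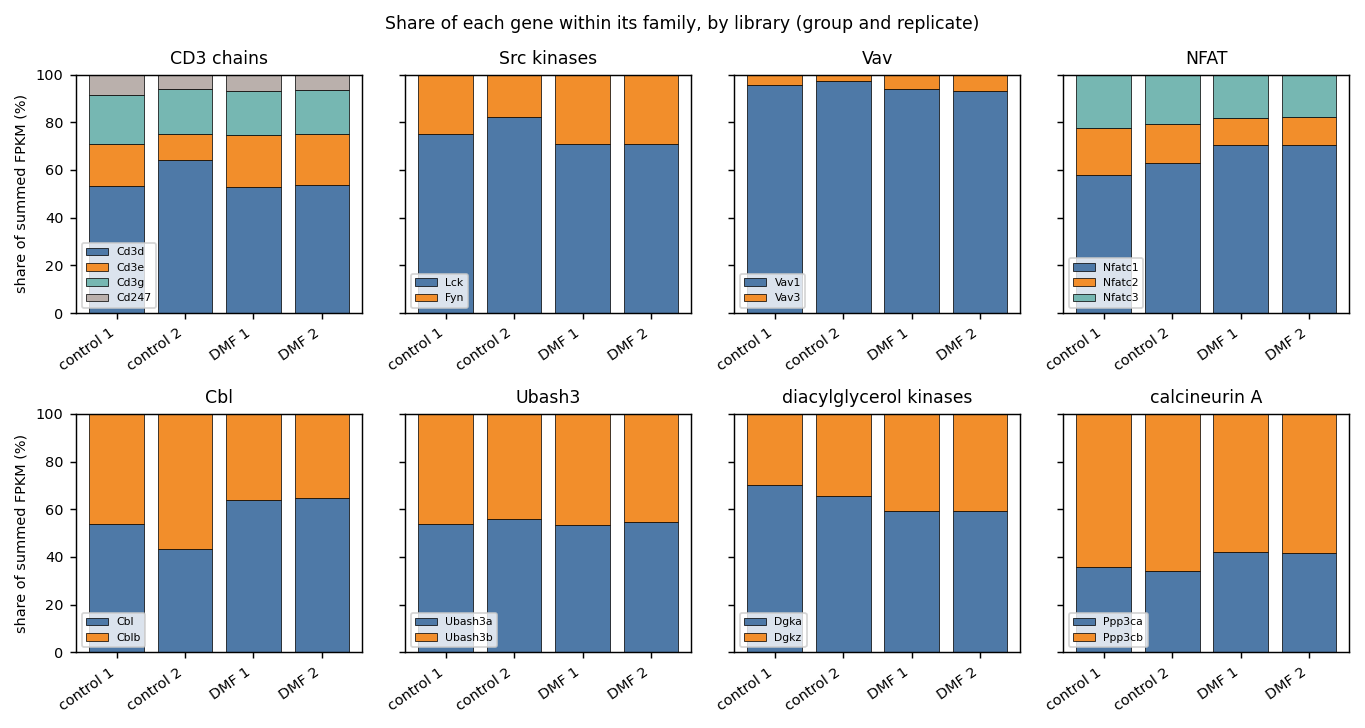
Share of each gene in the summed FPKM of the family members shown (vertical axis, percent) in each library, with 1 stacked bar per library. Family members outside the listed genes, such as Ppp3cc, are not counted. The DMF bars nearly coincide in each panel, and Nfatc1 makes up 70.6% and 70.3% of the NFAT sum in them.

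**Figure D4:**
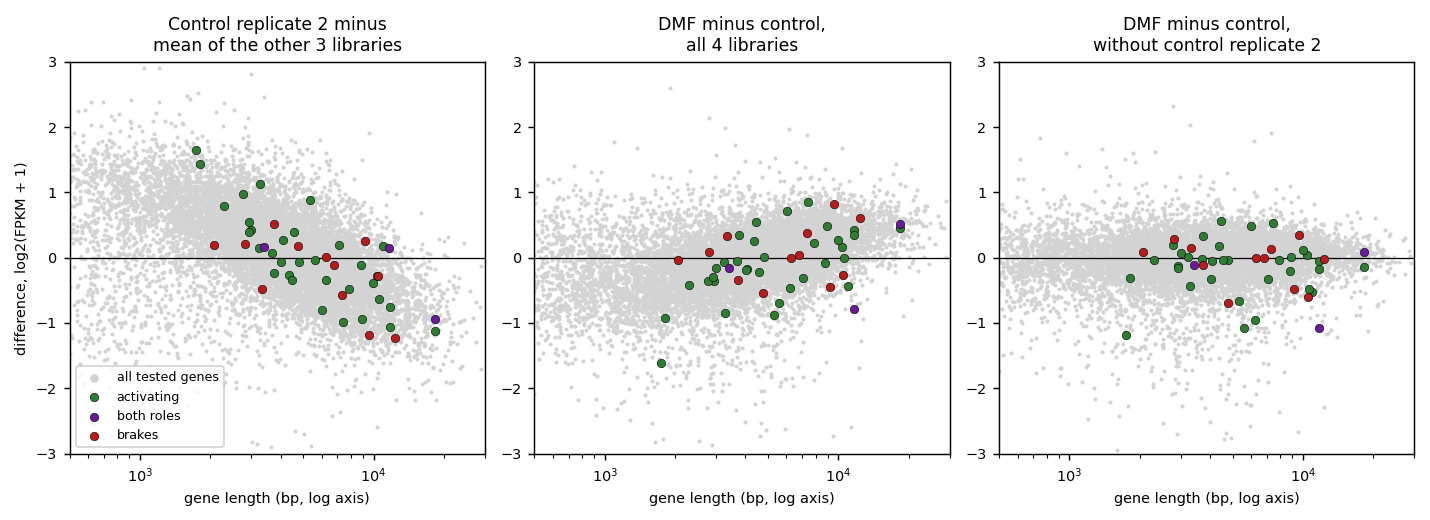
Difference on the log2(FPKM + 1) scale (vertical axis) against gene length (log axis) for all tested genes within the plotted range (grey) and the 48 genes (coloured by class). Control replicate 2 slopes down with length, the comparison with all libraries slopes up, and the slope is not seen without control replicate 2, where the medians of the 16 shortest, 16 middle and 16 longest genes were -0.031, -0.032 and -0.098.

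The plot against gene length shows how control replicate 2 bears on the listed genes. With all 4 libraries, the median difference was -0.23 over the 16 shortest genes and 0.25 over the 16 longest, and all tested genes of those lengths had medians of -0.18 and 0.31. Without that library the medians of the listed genes were -0.031 and -0.098. Among the 16 longest genes, those below both controls in both DMF cultures were Themis (11682 bp), Sla (9186 bp) and Txk (10955 bp), against 26.8% of all tested genes. Those above both were Sos1, Ppp3ca, Ptprc and Pag1, against 26.4%. With the length trend removed the differences of Themis, Sla and Txk were -1.12, -0.70 and -0.75. Those of Sos1, Ppp3ca, Ptprc and Pag1 were 0.24, -0.0069, 0.070 and 0.56.

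The wider pathway was read from lists chosen with earlier results of these data known, so their counts are descriptive only. They held 28 further activating genes and 24 further brakes, of which 28 and 22 were tested. None passed in limma over all genes, and 2 of the 28 and 5 of the 22 had an unadjusted p under 0.05, against 9.45% of all tested genes. Among the activating genes 12 lay below both controls and 5 above, against 26.8% and 26.4% of all tested genes, with a median of -0.11 that was -0.22 when control replicate 2 was left out and 0.021 when control replicate 1 was. Tespa1, which takes part in calcium signalling after receptor engagement, was at 3.39 and 2.79 FPKM against 7.12 and 7.79 FPKM, a ratio of 2.41 (1.05 on the log2 scale, limma adjusted p = 0.255) and the largest difference of the 28 in size. The receptor constant regions Trac, Trbc1 and Trbc2 were high in control replicate 2, at 689, 804 and 1352 FPKM, while the other libraries held between 282 and 587 FPKM of each. Among the brakes 6 lay below both controls and 9 above, with a median of 0.17 that was 0.034 without control replicate 2 and 0.015 with the length trend removed. Rasa3, which inactivates Ras family GTPases, was at 31.6 and 21.2 FPKM against 11.8 and 11.9 FPKM (-1.06 on the log2 scale). Sla2, the relative of Sla, was at 3.95 and 4.98 FPKM against 1.89 and 1.56 FPKM (-1.002). Sla and Sla2 were thus both lower in both DMF libraries.

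A list of 10 genes that the receptor signal induces was also chosen with earlier results of these data known. Of these, 4 lay below both controls, against 26.8% of all tested genes, and 3 above both, against 26.4%. The groups overlapped for 3, against 46.8% of all tested genes. In the same test 5 of the 10 had an unadjusted p under 0.05, against 9.45% of all tested genes. Nr4a1 was at 40 and 47.6 FPKM in the controls and 14.6 and 13.6 FPKM in the DMF libraries, whereas Egr2 was at 17.3 and 15.7 FPKM against 37.4 and 36.1 FPKM. Genes of the same inducible class thus lay in opposite directions, and none passed in limma over all genes (lowest adjusted p = 0.196).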

How the data were processed

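The authors deposited a single table of FPKM values per gene and library, together with each gene's name, position and length, per the file headers. Of tools and builds, edgeR and mm8 are listed in the submitters' processing notes, with no role stated for either. An aligner and a counter are not given in the sources used. Coordinates of 44 of the 48 genes equal those of GENCODE M21 (GRCm38), as do 98.3% of all identifiers found there, so they are given as GRCm38, and none is given for Sos1, Malt1, Cd5 or Ubash3a. FPKM times gene length gave whole multiples of 1 step for 100% of values within 0.01, and reads were worked out from this. The authors' FPKM imply library sizes that are 1.03, 0.876, 1.07 and 1.07 times the read totals in the libraries, taken as control 1, control 2, DMF 1 and DMF 2.

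limma 3.58.1 (lmFit, eBayes with a mean trend) in R 4.3.3 was run on log2(FPKM + 1) as a two-sided test of DMF minus control. It covered the 12166 genes whose mean reached 1 FPKM, with Benjamini-Hochberg adjustment over all of them and a threshold of 0.05. This scale understates differences of low genes. All 48 genes passed the level filter, the lowest at a mean of 2.16 FPKM. The fit was also run on simulated data. Their spread between libraries was set in advance and not taken from these libraries, so that run does not measure how the fit performs here. The genes, their roles and the further lists were chosen with earlier results of these data known. Values in all 4 libraries are given for genes whose groups did not overlap with a log2 difference of at least 1, for Cd3e, Cd4, Lck, Zap70, Lat, Ptprc and Ptpn22, and for others chosen after their values were seen. Alternatives were pseudocounts of 0.1 and 0.5, other level filters, 3 scalings, removal of a gene length trend (loess, span 0.3), limma's voom on the reads, a replicate block, and leaving out every library in turn.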

Additional observations from a re-analysis of the deposited data

How the results depend on the processing

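Of the 48 genes, 23 kept their direction in every alternative run and 25 changed it in at least 1. The pseudocounts, the absence of a level filter and voom left 0 genes past the threshold, as did the 3 scalings, and of the alternatives run only the replicate block and leaving out a control brought a listed gene past it. The number of genes past the threshold over all tested was 0, and was 3 with the gene length trend removed, 552 with the replicate block, and between 6 and 7420 with a library left out. Of the listed genes, 1 passed with the replicate block (Cd2, limma adjusted p = 0.0193, against a range over left-out libraries from 0.00134 with control replicate 1 left out to 0.99995 with a DMF library left out) and between 0 and 36 with a library left out (15 without control replicate 2, 36 without control replicate 1 and 0 without either DMF library). The replicate numbers are not said to pair the libraries, and deviations of same-numbered libraries from their group means had a correlation of -0.023 over genes. The median over the activating parts, -0.077, was -0.17 at a mean FPKM of at least 5, 0.18 under quantile normalization, -0.13 with the length trend removed and between -0.10 and -0.042 with a library left out. The median over the brakes, 0.019, was 0.30 under quantile normalization and between -0.0086 and 0.031 with a library left out.

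Quantile normalization turned Cd3e (0.11), Cd4 (0.18), Lck (0.22), Zap70 (0.31), Lat (0.25), Vav1 (0.26), Ppp3r1 (0.18), Cd6 (0.45), Cd5 (0.66), Csk (0.0092) and Dgkz (0.26) to a positive difference, and Nck1 (-0.058) and Nfatc2 (-0.034) to a negative one. Removing the length trend turned Vav1 (0.018), Ppp3r1 (0.058) and Cd5 (0.25) to positive, and Nck1 (-0.017), Stim1 (-0.13), Ppp3ca (-0.0069), Nfatc2 (-0.30) and Ptpn22 (-0.11) to negative. With equal medians Nck1 was at -0.020 and Nfatc2 at -0.027. Dgkz was at 0.019 under the trimmed mean of log ratios and 0.013 under voom. The cause of these turns was not tested.

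Leaving out a library turned 17 genes. Their differences ran from -0.39 to 0.077 for Zap70, -0.91 to 0.20 for Lat, -0.95 to 0.021 for Grap2, -0.039 to 0.055 for Nck1, -0.029 to 0.47 for Plcg1, -0.17 to 1.01 for Malt1, -0.15 to 1.07 for Itpr1, -0.20 to 0.043 for Ppp3cb, -0.14 to 0.014 for Ppp3r1, -0.48 to 0.48 for Nfatc2, -0.049 to 0.75 for Nfatc3, -0.16 to 0.094 for Cd5, -0.10 to 0.29 for Ptpn6, -0.011 to 0.11 for Ptpn22, -0.021 to 1.23 for Cbl, -0.60 to 0.077 for Cblb and -0.026 to 0.0053 for Dgkz.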
